A study of Mus musculus with 16 samples.

Results

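The matrix metalloproteinases, their tissue inhibitors and the ADAM, ADAMTS and ADAMTS-like genes were followed in mouse hepatocytes with and without depletion of the translation factor eIF6. Members were all genes whose name on the array starts with Mmp, Timp, Adam, Adamts or Adamtsl followed by a number, and they made up 84 of 30214 gene names. Of these, 49 gave a signal that could be tested, together with 19366 genes in all.

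Matrix metalloproteinases (MMPs) are zinc proteases that cut collagens, laminins and other matrix proteins, and most are made as inactive precursors. TIMPs bind and block the active site of MMPs and of some ADAMs. ADAMs sit in the plasma membrane and release the outer parts of growth factors, cytokines and receptors, while ADAMTS proteases are secreted and trim procollagens or proteoglycans, and ADAMTS-like proteins lack the protease part. In liver, some of these genes are known from hepatic stellate cells and fibroblasts, where they take part in the build-up and the resolution of scar tissue.

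RNA came from AML12 cells, a mouse hepatocyte line, that carried a doxycycline-inducible shRNA, either scramble or against eIF6 (the labels say shRNA only, and the target is given in the study's methods). Every culture received doxycycline, which induces the shRNA, and then insulin for 1 h, with 100 nM insulin in one label and 100 mM in another. The 1 h applies to insulin only. Each lysate was separated on a sucrose gradient into polysomes, where mRNAs carry several ribosomes, and subpolysomes, where they carry few or none. Biological quadruplicates gave 4 groups of 4 arrays: scramble polysomal, eIF6 shRNA polysomal, scramble subpolysomal and eIF6 shRNA subpolysomal. All groups come from 1 cell line, and there was no culture without doxycycline or insulin among them.

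A value below is the log2 fluorescence of a gene after quantile normalization, and a change is eIF6 shRNA minus scramble, so that a negative change is a lower signal in depleted cells. A gene was called changed when its limma p-value, adjusted over all genes tested, was under 0.05. Between 20194 and 24957 of 39429 probes were well above background on an array. Eif6 itself fell by 1.05 on polysomes (SE 0.08, adjusted p = 1.45e-07), from a mean of 12.95 ± 0.01 to 11.89 ± 0.08 (SD, n = 4 arrays), and in subpolysomes its change was 0.02 (adjusted p = 0.916). Of 11 hepatocyte markers on the array, 6 were well above background on all 16 arrays, among them Hnf4a, Ttr and Krt18, while albumin was so on 7 arrays and Fgb on none. Of 12 stellate cell and fibroblast markers, 7 were seen on all 16 arrays, among them Col1a1, Acta2 and Pdgfrb, and Lrat and Lum on none.

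Signals were read by 60-base probes, and the first 30 bases of those behind the main results are shown 5′ to 3′ with no capitals, because no single base matters here. Mmp23 and Mmp17 are shown for their change in translational efficiency, the inhibitors because not all of them changed, and both Adamts4 probes because they did not agree.
Mmp23: gtgtgcatcctgggcacgaaagggattttg
Mmp17: gggtaggggcatctgaggtttccctgtctt
Timp1: tacttttcctccatctttctttctcttaga
Timp3: atagtgacttttggggatagatctgtctgg
Timp2, probe A: ccgtgagcgttcttgtgccgtgttgatgcc
Timp2, probe B: taattgcaggaaaggcagaaggagatggca
Adamts4, probe A: cgcatctttgagcattagttttctcatgtg
Adamts4, probe B: aatgagaggaacaggatgtggtctggtatt
On the mm9 build, the Mmp23 probe lies at chr4:155025377-155025436 on the minus strand, the Mmp17 probe at chr5:130113835-130113894 on the plus strand, the Timp1 probe at chrX:20451802-20451861 on the plus strand and the Timp3 probe at chr10:85811696-85811755 on the plus strand. Timp2 probe A lies at chr11:118163146-118163205 and probe B spans chr11:118171964-118178741, both on the minus strand, so that the 60 bases of probe B are spread over a longer stretch of the genome. Adamts4 probe A is at chr1:173189952-173190011 and probe B at chr1:173190709-173190768, both on the plus strand. The files do not say in which exon a probe lies.

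The 49 tested genes were 18 of 33 ADAM genes, 13 of 19 ADAMTS, 2 of 5 ADAMTS-like, 13 of 23 MMPs and 3 of 4 TIMPs. In each of the 4 groups, 35 genes were well above background on 2 arrays or more, and 29 were so on all 16 arrays. The map of arrays per group shows that several MMPs were seen on polysomes and not in subpolysomes: Mmp15 was above background on all 8 polysomal and on none of the subpolysomal arrays, and Mmp19 on 7 and none. The remaining 35 genes were on at most 2 arrays each and 18 of them on none, among them the collagenase Mmp8, the enamel protease Mmp20, the von Willebrand factor protease Adamts13 and the sperm protein gene Adam2. The inhibitor Timp4 was above background on 1 array.

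**Figure D1:**
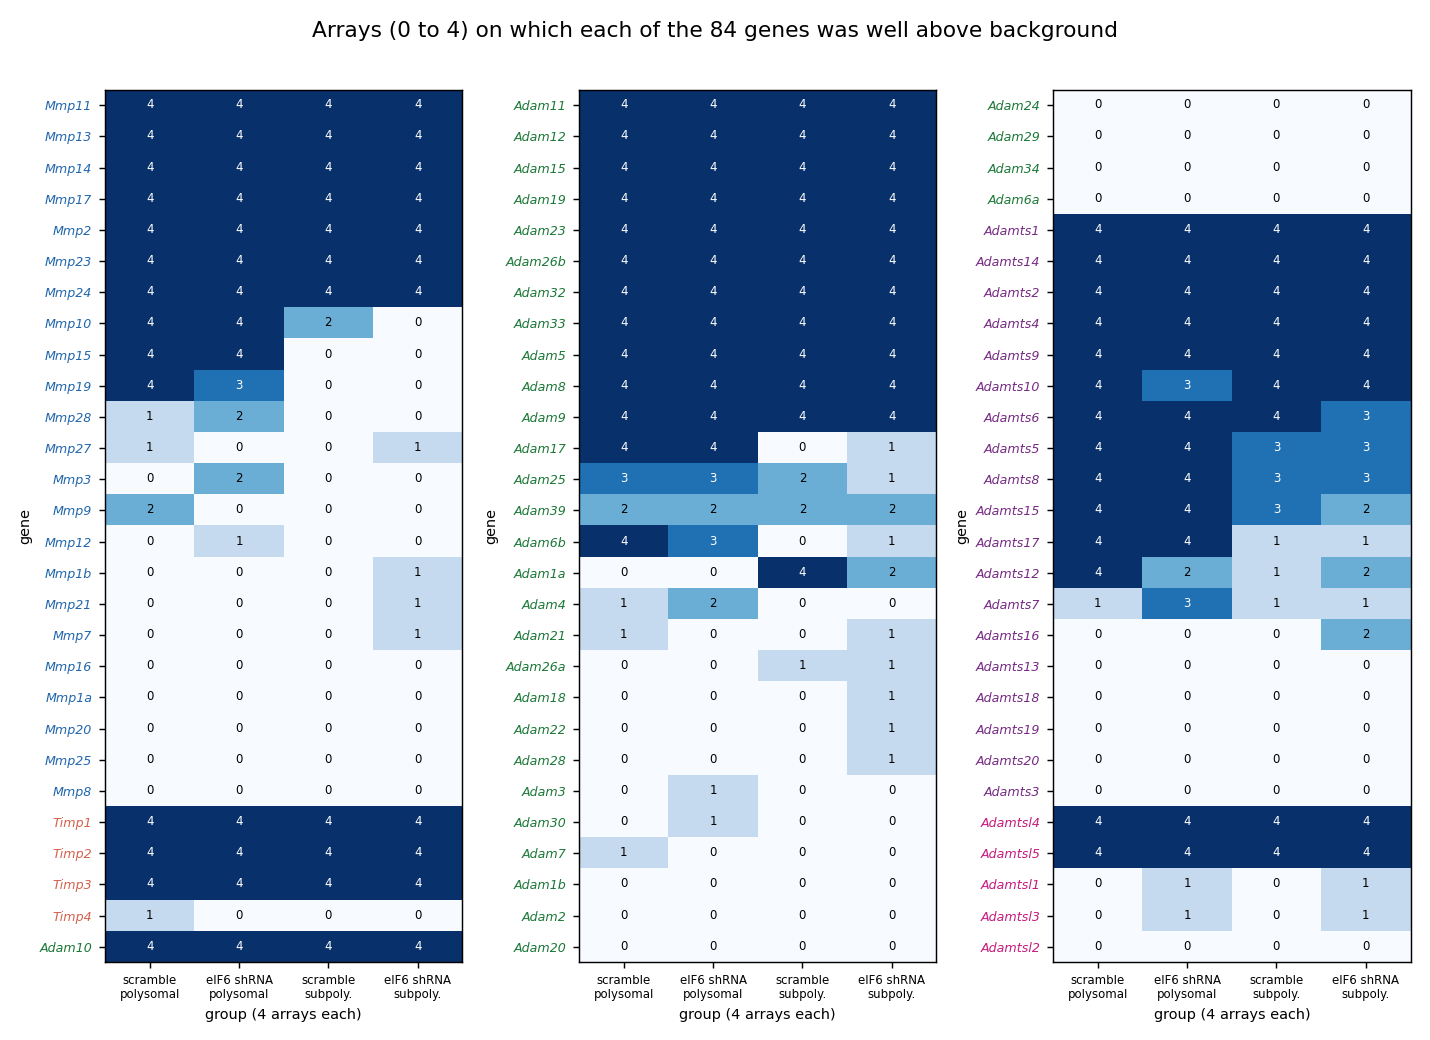
Number of arrays (0 to 4, colour and digit) on which any probe of each of the 84 genes was well above background, by group (columns) and gene (rows, coloured by family). A row of 4 in all columns marks the 29 genes seen on all 16 arrays, and the pale rows are genes on few arrays or none.

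On polysomes, 16 of the 49 genes fell and 4 rose in depleted cells, which is 32.7% and 8.16% of them, where 10.7% of all tested genes fell and 11.1% rose. Lower were Timp1, Timp3, Mmp2, Mmp9, Mmp11, Mmp17, Mmp23, Adam8, Adam12, Adam19, Adam23, Adamts1, Adamts2, Adamts4, Adamts5 and Adamts14, and higher were Mmp13, Mmp15, Adamts9 and Adamtsl4. Mmp9 entered the test only through the scramble polysomal arrays, where it is high, and 15 of the falls were measured in both groups. The median change of the 49 genes was -0.21 and that of all genes 0.02. In subpolysomes 9 genes fell (18.4%, all genes 12.3%) and 4 rose (8.16%, all genes 11.9%), with a median of -0.11 beside 0.02 over all genes. Of the 16 genes that fell on polysomes, 8 also fell in subpolysomes and 8 were not called there. That split depends on how probes are combined: with the brightest probe of each gene alone, 12 members fell in subpolysomes. Both called changes in translational efficiency, the polysomal change minus the subpolysomal change, were losses, of Mmp17 and Mmp23. They make up 4.08% of the 49 genes, beside 1.11% of all genes. No member was called with a gain, beside 0.403% of all genes. In bulk RNA, fewer cells that express a gene and less of its mRNA per cell cannot be told apart.

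Arrays with the same scan time in the file headers were taken to lie on one slide, which gave 4 slides that carried every group once. Each of the 20 polysomal, 13 subpolysomal and 2 efficiency calls had the same direction within each of these slides. The calls were made on the same arrays, so the shared direction describes them and is no separate check. When arrays were scaled to 7 spike-in probes instead, the median change of all genes was -0.47 on polysomes and -0.23 in subpolysomes and that of the 49 genes -0.75 and -0.33. Under that scaling 13 of the 49 fell and none rose on polysomes, and 1 fell and none rose in subpolysomes, with every call's sign kept. The polysomal calls lost were the falls of Adam8, Adam23 and Mmp11 and the rises of Mmp13, Mmp15, Adamts9 and Adamtsl4. Changes below are therefore relative to the other mRNAs of the same fraction, not amounts per cell.

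**Figure D2:**
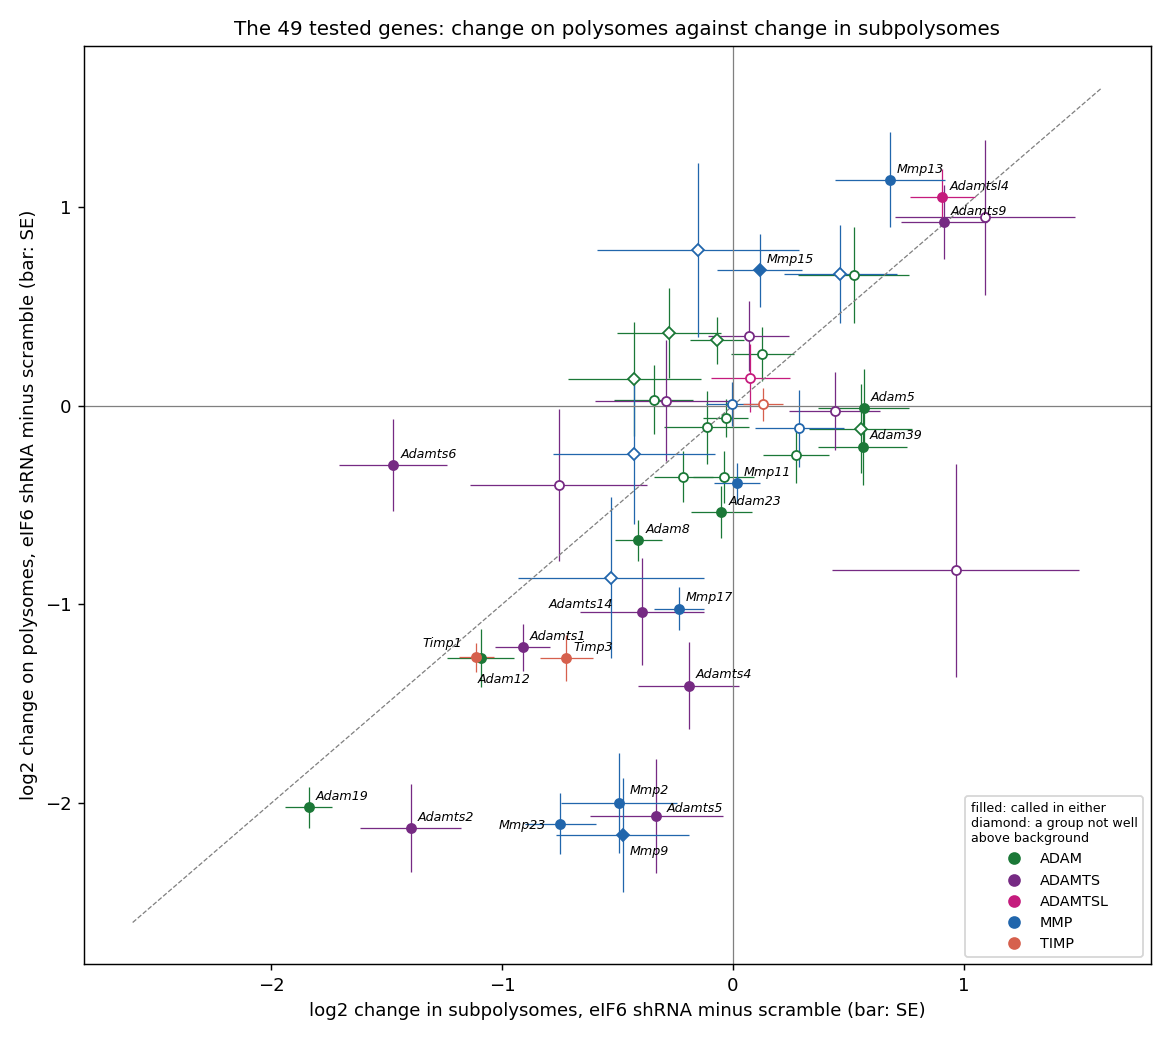
Log2 change of the 49 tested genes on polysomes (vertical) against that in subpolysomes (horizontal), with SE bars, n = 4 arrays a group; colours are families, filled points were called in either fraction, diamonds had a group on none of whose arrays the gene was well above background, and the dashed line marks equal changes. Adam19, Timp1 and Adam12 lie near the line, whereas Mmp2, Mmp23, Adamts4 and Adamts5 lie far below it. Points are means over the kept probes of a gene. Among the called genes, the places of Adam12, Adam23, Adamts4, Adamts5 and Adamts9 rest in part on a probe that was not above background in every group.

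Among the inhibitors, Timp1 and Timp3 fell and Timp2 did not pass the test. Timp1, a secreted inhibitor of most MMPs, read 15.46, 15.57, 15.62 and 15.38 on the scramble polysomal arrays and 14.16, 14.26, 14.29 and 14.24 after depletion. In subpolysomes the scramble arrays read 15.12, 15.03, 15.04 and 15.08 and the depleted ones 13.89, 13.95, 14.09 and 13.90. The groups did not overlap in either fraction, and the falls were of nearly one size, with changes of -1.27 (SE 0.08, 2.41-fold, adjusted p = 1.28e-08) and -1.11 (SE 0.08, 2.16-fold, adjusted p = 8.81e-08). Its efficiency changed by -0.16 (SE 0.11, 95% interval -0.38 to 0.07, adjusted p = 0.611).

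Timp3, which stays bound to the matrix and also blocks ADAM17, read 9.83, 9.96, 9.68 and 9.90 in scramble polysomes and 8.48, 8.61, 8.46 and 8.74 in depleted ones. The subpolysomal readings were 9.36, 9.49, 9.41 and 9.05 against 8.52, 8.40, 8.73 and 8.76. Again no array of one group reached the other. The change was -1.27 on polysomes (SE 0.11, adjusted p = 9.63e-07) and -0.72 in subpolysomes (SE 0.11, adjusted p = 0.000306), and the difference of -0.55 between them had an adjusted p of 0.127.

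Timp2 inhibits MMPs and also helps MMP14 to activate pro-MMP2. It read 14.52, 14.63, 14.73 and 14.46 on scramble polysomes and 14.71, 14.66, 14.43 and 14.56 after depletion, which overlap. Subpolysomal readings were 12.61, 12.81, 12.76 and 12.77 in scramble cells and 12.89, 12.81, 12.94 and 12.84 in depleted cells. Its polysomal change was 0.01 with a 95% interval of -0.17 to 0.19, so that a fall of the size seen for Timp1 lies outside the interval. The 2 Timp2 probes differed in sign on polysomes, at -0.25 for one and 0.26 for the other, and the sign of the mean turned with the scaling (0.01 as given, -0.48 with spike-in probes).

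**Figure D3:**
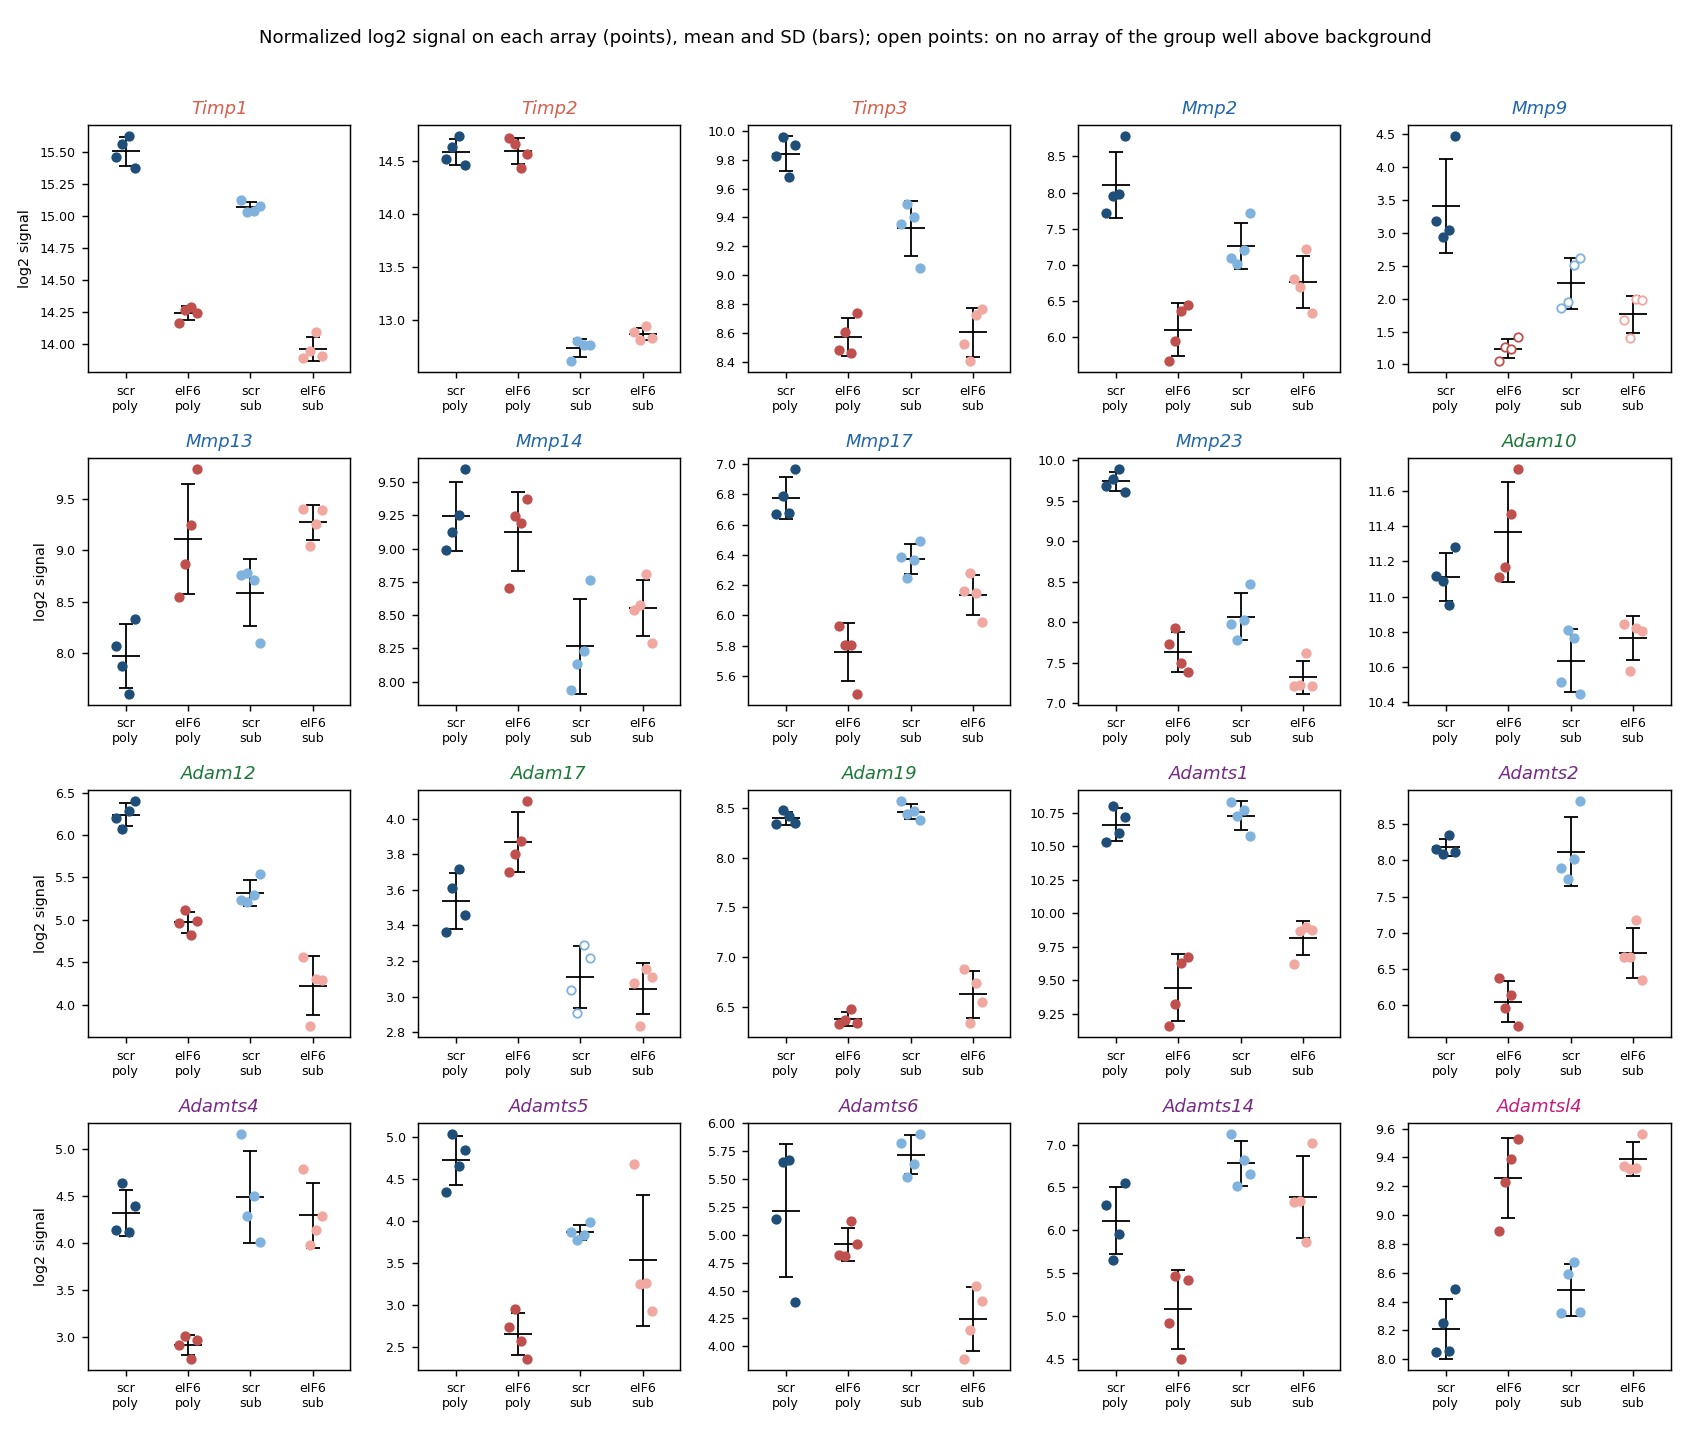
Normalized log2 signal (vertical, own scale per gene) of 20 genes on each of 16 arrays, with the mean (line) and SD (bar) of each group of 4: scramble (scr, blue) and eIF6 shRNA (eIF6, red), polysomal (poly, dark) and subpolysomal (sub, pale). Open points mark groups in which the gene was well above background on no array. In Timp1, Adam19 and Adamts1 both fractions fall, and in Mmp2 and Mmp17 the dark red points are low while the pale groups overlap.

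The gelatinases cut denatured collagen and the type IV collagen of basement membranes. Mmp2 read 7.72, 7.95, 7.98 and 8.78 on scramble polysomes and 5.67, 5.95, 6.36 and 6.45 after depletion. In subpolysomes it read 7.09, 7.01, 7.21 and 7.72 in scramble cells and 6.81, 6.70, 7.22 and 6.34 in depleted cells. The polysomal groups were apart by more than the spread within them and the subpolysomal groups overlapped. Mmp2 fell by 2.00 on polysomes (SE 0.25, 4.00-fold, adjusted p = 2.95e-05), and its subpolysomal change was -0.49 (SE 0.25, adjusted p = 0.177). The difference of these, -1.50 (SE 0.36), missed the threshold at an adjusted p of 0.0518.

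Mmp9 was well above background on 2 of 4 scramble polysomal arrays and on none of the other 12. It passed the detection filter only through the group in which it is high, and its values are a description. Its scramble polysomal signals were 3.17, 2.93, 3.04 and 4.46, of which the last stood apart, and the depleted arrays read 1.05, 1.26, 1.24 and 1.41. Since the depleted group was not measured, only a bound can be given: the scramble mean of 3.40, which includes 2 arrays not above background, was at least 1.52-fold higher than the lowest signal that counts as above background. No subpolysomal array was well above background, so Mmp9 has neither a subpolysomal change nor an efficiency here.

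Of 4 tested membrane-type MMPs, Mmp17 fell and Mmp15 rose on polysomes. Mmp17 (MT4-MMP), which is held in the membrane by a GPI anchor, read 6.67, 6.79, 6.68 and 6.97 on scramble polysomes and 5.93, 5.81, 5.81 and 5.48 in depleted cells. Its subpolysomal signals were 6.38, 6.24, 6.36 and 6.49 against 6.16, 6.28, 6.15 and 5.96. Separation was complete on polysomes and not in subpolysomes. The polysomal fall was 1.02 (a change of -1.02, SE 0.11, 2.03-fold, adjusted p = 5.15e-06), the subpolysomal change -0.23 (SE 0.11, adjusted p = 0.134), and the efficiency fell by 0.79 (SE 0.15, 1.72-fold, adjusted p = 0.0171). That efficiency call was lost without the arrays of replicate 1, 2 or 3, with changes between -0.87 and -0.71 over the 4 repeats.

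Mmp15 (MT2-MMP) rose by 0.68 on polysomes (SE 0.18, adjusted p = 0.0147), from a mean of 4.21 ± 0.18 (SD, n = 4) to 4.89 ± 0.23, and lost the call without replicate 1 or 2. It was above background on no subpolysomal array, so its change there is unknown. Mmp14 (MT1-MMP), the main cell-surface collagenase and the activator of pro-MMP2, was not called. It read 8.99, 9.13, 9.26 and 9.60 on scramble polysomes against 8.70, 9.24, 9.19 and 9.38 after depletion. In subpolysomes it read 7.94, 8.13, 8.23 and 8.77 against 8.54, 8.58, 8.81 and 8.29. All these groups overlapped, and the polysomal change of -0.11 had a 95% interval of -0.53 to 0.30. Mmp24 (MT5-MMP) changed by 0.01 on polysomes (adjusted p = 0.971). Its probes lie at chr2:155641710-155643580 on mm9, next to those of Eif6 at chr2:155645718-155650961.

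Mmp23, an MMP with a type II membrane anchor and a toxin-like domain in place of the usual hemopexin domain, had the largest called loss of efficiency among the 49 genes. Polysomal signals were 9.68, 9.77, 9.89 and 9.61 in scramble cells and 7.73, 7.92, 7.50 and 7.38 after depletion. The subpolysomal ones were 7.98, 7.79, 8.03 and 8.48 against 7.22, 7.23, 7.62 and 7.22. Both fractions separated without overlap, the polysomal one by a wide margin. Changes were -2.10 on polysomes (SE 0.15, 4.30-fold, adjusted p = 1.15e-07) and -0.75 in subpolysomes (SE 0.15, 1.68-fold, adjusted p = 0.00241). Efficiency thus fell by 1.35 (SE 0.22, 2.56-fold, adjusted p = 0.00465), and the 4 slides gave -1.73 to -0.91. Without the arrays of replicate 1 or 3 it was no longer called, while the change stayed between -1.48 and -1.14.

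In the collagenase and stromelysin list 4 of 9 genes were tested, 1 of which rose and 1 fell on polysomes. Mmp13 is the main interstitial collagenase of rodents. It read 8.07, 7.88, 7.61 and 8.33 on scramble polysomes and 8.55, 8.87, 9.24 and 9.79 after depletion. The subpolysomal readings were 8.76, 8.78, 8.71 and 8.10 in scramble cells and 9.40, 9.04, 9.25 and 9.39 in depleted cells. Neither fraction overlapped. The change was 1.14 on polysomes (SE 0.24, 2.20-fold, adjusted p = 0.00257) and 0.68 in subpolysomes (SE 0.24, adjusted p = 0.0511), and the polysomal call was lost without replicate 3 and with spike-in scaling. Mmp11 (stromelysin 3) fell by 0.39 on polysomes (SE 0.10, adjusted p = 0.0103), a call lost without replicate 1 or 4, and its change in subpolysomes was 0.02. Mmp3 and Mmp10, the classical stromelysins, were seen on 2 and 10 arrays and were not called.

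Mmp13, Mmp3 and Mmp10 lie with 7 other MMP genes in one stretch of chromosome 9, whose array probes span chr9:7282762-7697700 on mm9. Only these 3 of the 10 were tested. Their promoters are shown because these are the tested genes of that stretch, and the differences between them in response were not tested. The lines below hold the last 120 bases before the RefSeq start (GRCm38.p6, plus strand), with the AP-1 motif TGANTCA in capitals; AP-1 (Fos and Jun) is the classical inducer of these genes.
Mmp13: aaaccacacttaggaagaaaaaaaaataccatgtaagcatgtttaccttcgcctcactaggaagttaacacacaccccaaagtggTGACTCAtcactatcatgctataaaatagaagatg
Mmp3: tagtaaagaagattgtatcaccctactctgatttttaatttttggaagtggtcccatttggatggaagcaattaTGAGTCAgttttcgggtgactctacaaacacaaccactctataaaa
Mmp10: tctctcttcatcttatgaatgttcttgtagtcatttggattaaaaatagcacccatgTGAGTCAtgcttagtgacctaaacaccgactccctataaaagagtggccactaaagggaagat
These windows are chr9:7272394-7272513 for Mmp13, chr9:7445702-7445821 for Mmp3 and chr9:7502222-7502341 for Mmp10. Each holds 1 AP-1 motif and 1 TATA box (TATAAA, searched on the gene's strand; AP-1 was searched on both strands).

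Over the 250 bases before the start, AP-1 was found in 8 of the 10 genes of that stretch and in 4 of 43 members elsewhere. By promoter, it was in 20.7% of 58 member promoters (53 of 84 genes matched RefSeq) and in 6.75% of all 32851. Of 13 promoters of 10 members that fell on polysomes, 1 held it, at a start of Adam19, a gene with several listed starts. The GC box GGGCGG, the letters of an Sp1 site, was in 53.8% of these 13 promoters, in 54.5% of those of tested members and in 32.7% of all promoters (both strands). A match is a string of letters and says nothing of binding.

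Among the ADAMs, 8 of 9 sheddases and other widely expressed proteases were tested, and 3 of the 8 fell in both fractions. Adam19 (meltrin beta), a protease that releases neuregulins, read 8.34, 8.48, 8.42 and 8.35 on scramble polysomes and 6.32, 6.36, 6.48 and 6.34 after depletion. In subpolysomes it read 8.57, 8.43, 8.47 and 8.38 against 6.88, 6.34, 6.74 and 6.55. No values came near those of the other group, with changes of -2.02 (SE 0.10, 4.06-fold, adjusted p = 2.89e-09) and -1.84 (SE 0.10, 3.57-fold, adjusted p = 1.46e-08). The efficiency change of -0.18 had a 95% interval of -0.49 to 0.13, which leaves out a loss as large as that of Mmp23. Adam19 was the member that fell in subpolysomes even with spike-in scaling.

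Adam12 (meltrin alpha), known from muscle precursors and activated stellate cells, read 6.21, 6.08, 6.28 and 6.40 on scramble polysomes against 4.96, 5.12, 4.82 and 4.98. Subpolysomal values were 5.23, 5.21, 5.29 and 5.54 against 4.56, 3.75, 4.30 and 4.29. Each fraction separated, by -1.27 (SE 0.15, 2.41-fold, adjusted p = 1.16e-05) and -1.09 (SE 0.15, 2.13-fold, adjusted p = 6.63e-05). These are means of 2 kept probes. The probe seen on all 16 arrays gave -1.40 on polysomes and -0.79 in subpolysomes, an efficiency change of -0.61. The other gave -1.14 and -1.40, an efficiency change of 0.25. That probe was above background on 2 scramble and 0 depleted subpolysomal arrays. Adam8, a protease best known from leukocytes, fell by 0.68 on polysomes (adjusted p = 0.000169, lost with spike-in scaling) and by 0.41 in subpolysomes (adjusted p = 0.00905, lost without replicate 2 and with spike-in scaling).

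Adam10 and Adam17, the main sheddases of Notch and of TNF, were not called. Adam10 read 11.11, 11.09, 10.95 and 11.28 on scramble polysomes and 11.11, 11.17, 11.47 and 11.72 after depletion, and 10.51, 10.81, 10.76 and 10.45 against 10.84, 10.58, 10.82 and 10.81 in subpolysomes. Its polysomal change was 0.26 (95% interval -0.03 to 0.55, adjusted p = 0.214) and took the opposite sign, -0.19, with spike-in scaling. Adam17 read 3.36, 3.61, 3.72 and 3.46 against 3.70, 3.80, 3.87 and 4.10 on polysomes, a change of 0.33 (SE 0.12, adjusted p = 0.0614) that was -0.24 with spike-in scaling. Its subpolysomal signals, 3.04, 2.91, 3.29 and 3.21 against 3.08, 2.83, 3.15 and 3.11, were well above background on 1 of 8 arrays.

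ADAMs without a working protease motif act in adhesion. Adam23, a brain protein that binds LGI1, fell by 0.54 on polysomes (SE 0.13, adjusted p = 0.00778, lost without replicate 3), with probe values of -0.23, -0.50 and -0.88. In subpolysomes it changed by -0.05, where the same probes gave -0.03, 0.30 and -0.41 and the first of them was above background on no array. Adam5 and Adam39, relatives known from testis, passed the test in subpolysomes only, with changes of 0.57 (adjusted p = 0.0483) and 0.56 (adjusted p = 0.0448). Adam5 lost that call without any single replicate number and Adam39 without 1, 2 or 4, and the groups of both overlapped. Adam39 was above background on 8 of 16 arrays.

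Both tested procollagen N-propeptidases, Adamts2 and Adamts14, fell on polysomes; they trim the ends of fibrillar procollagens. Adamts2 read 8.16, 8.08, 8.35 and 8.12 on scramble polysomes and 6.38, 5.96, 6.14 and 5.72 after depletion. Subpolysomal readings were 7.89, 7.74, 8.01 and 8.81 against 6.67, 6.67, 7.18 and 6.35. Here too the groups were apart in both fractions, by -2.13 (SE 0.22, 4.36-fold, adjusted p = 4.14e-06) and -1.40 (SE 0.22, 2.63-fold, adjusted p = 0.000303).

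Adamts14 varied more. It read 6.29, 5.65, 5.96 and 6.56 on scramble polysomes against 4.91, 5.47, 4.50 and 5.42. In subpolysomes the values 7.12, 6.52, 6.82 and 6.66 overlapped with 6.33, 6.33, 5.87 and 7.02. Its mean change was -1.04 on polysomes (SE 0.27, adjusted p = 0.0111, lost without replicate 1 or 3) and -0.39 in subpolysomes (adjusted p = 0.325). The subpolysomal result rests on the probe: the brighter of the 2, above background on all 16 arrays, gave -1.60 on polysomes and -1.18 in subpolysomes (adjusted p = 5.02e-05), and the other gave -0.48 and 0.40.

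Of 6 tested ADAMTS that cleave proteoglycans such as aggrecan and versican, 3 fell and 1 rose on polysomes. Adamts1 read 10.53, 10.80, 10.60 and 10.72 on scramble polysomes and 9.16, 9.32, 9.63 and 9.67 after depletion. In subpolysomes it read 10.83, 10.73, 10.77 and 10.58 against 9.62, 9.87, 9.90 and 9.87. Both pairs of groups separated, with changes of -1.22 (SE 0.12, 2.32-fold, adjusted p = 2.08e-06) and -0.91 (SE 0.12, 1.88-fold, adjusted p = 4.97e-05).

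Adamts5, the major aggrecanase of mouse cartilage, is the neighbour of Adamts1 on chromosome 16. It read 4.35, 5.04, 4.66 and 4.85 on scramble polysomes and 2.74, 2.96, 2.58 and 2.37 after depletion. In subpolysomes it read 3.87, 3.78, 3.84 and 3.99 against 4.68, 3.26, 3.27 and 2.94, where the first depleted array lay above all scramble arrays. The polysomal change was -2.06 (SE 0.29, 4.18-fold, adjusted p = 8.01e-05) and the subpolysomal one -0.33 (SE 0.29, adjusted p = 0.451). These are means of 2 kept probes. The probe above background in every group gave -2.14 and -0.21. The other was above background on 4 scramble polysomal, 0 depleted polysomal, 0 scramble subpolysomal and 1 depleted subpolysomal arrays. That probe passed the detection filter only through the group in which it is high. Its values, -1.99 and -0.46, are a description. Efficiency changed by -1.73 (SE 0.41) and missed the threshold at an adjusted p of 0.0504, while it was called with the brightest probe alone (-1.93, adjusted p = 0.0119). Without replicate 1, which holds that first depleted array, the mean of both Adamts5 probes was also called in subpolysomes (-0.71, adjusted p = 0.0182). The efficiency of that mean was called too (-1.50, adjusted p = 0.0278). Both neighbours fell on polysomes, and whether Adamts5 passed the test in subpolysomes as Adamts1 did rested on that array.

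Adamts4 (aggrecanase 1) read 4.14, 4.64, 4.12 and 4.39 on scramble polysomes and 2.91, 3.01, 2.77 and 2.97 after depletion, and 5.16, 4.29, 4.50 and 4.01 against 4.79, 3.99, 4.14 and 4.29 in subpolysomes. The mean of its probes fell by 1.41 on polysomes (SE 0.22, adjusted p = 0.000223) and changed by -0.19 in subpolysomes (adjusted p = 0.583). Its 2 probes gave unlike values. The one above background on all 16 arrays gave -2.46 on polysomes and -2.21 in subpolysomes (adjusted p = 1.76e-06). The other gave -0.35 and 1.83 and was above background on 2 arrays, both eIF6 shRNA subpolysomal. That probe passed the detection filter only through the group in which it is high, and its values are a description. With the brighter probe alone Adamts4 had therefore fallen in both fractions and its efficiency change was -0.25 (adjusted p = 0.801), against -1.22 (adjusted p = 0.0731) for the mean.

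Adamts9, a secreted protease that also acts on versican, rose by 0.92 on polysomes (SE 0.19, adjusted p = 0.00204) and by 0.91 in subpolysomes (SE 0.19, adjusted p = 0.00237), and its efficiency change was 0.01. Adamts8 and Adamts15, neighbours elsewhere on chromosome 9, were not called, with polysomal changes of -0.03 and 0.35.

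Adamts6 and Adamtsl4 both bear on the microfibrils of fibrillin. Adamts6 was lower in subpolysomes and not called on polysomes. It read 5.82, 5.51, 5.64 and 5.90 in scramble subpolysomes and 3.89, 4.15, 4.54 and 4.41 after depletion, without overlap. Polysomal signals were 5.14, 5.65, 5.67 and 4.40 against 4.81, 4.81, 5.13 and 4.91, where the fourth scramble array was the lowest of the 8. Its changes were -1.47 (SE 0.23, 2.77-fold, adjusted p = 0.000308) and -0.30 (SE 0.23, adjusted p = 0.441), and the difference of 1.17, the highest efficiency value of the members measured in all groups, had an adjusted p of 0.109.

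Adamtsl4 read 8.05, 8.25, 8.06 and 8.49 on scramble polysomes and 8.89, 9.23, 9.39 and 9.53 after depletion. In subpolysomes the readings were 8.32, 8.59, 8.67 and 8.33 against 9.34, 9.32, 9.32 and 9.56. Every depleted array lay above every scramble array of its fraction. The rise was 1.05 on polysomes (SE 0.14, 2.07-fold, adjusted p = 6.18e-05) and 0.91 in subpolysomes (SE 0.14, 1.88-fold, adjusted p = 0.000279). All 4 polysomal and all 4 subpolysomal rises of the members lost their call with spike-in scaling and kept their sign.

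Neither fraction gave a call for 26 of the 49 genes, whose polysomal changes ran from -0.86 (Mmp19) to 0.95 (Adamts7), with 12 below 0. Among the brighter of these, Adam15 changed by -0.06 and Adam9 by -0.36, both membrane proteases of many cell types, and Adamtsl5 by 0.14. Of 15 members with several kept probes, the probes differed in sign for 4 on polysomes and for 8 in subpolysomes.

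The changes in translational efficiency ran from -1.79 to 1.17 over the 39 genes measured in every group. Beside Mmp17 and Mmp23, the lowest were Adamts12 (-1.79, SE 0.76, adjusted p = 0.338), Adamts5, Mmp2 and Adamts4. The Adamts4 value takes in the probe seen only on 2 eIF6 shRNA subpolysomal arrays, and its brighter probe alone gave -0.25. The Adamts5 value takes in a probe seen on no depleted polysomal array, and its brighter probe alone gave -1.93. How many losses were called depended on the setting, from 0 with spike-in scaling to 6 with scaling to the 75th percentile. Of the 8 genes that fell in both fractions, the 95% interval of the efficiency change reached 0 for Timp1, Adam8, Adam12, Adam19 and Adamts1. It left out 0 for Timp3 (-0.89 to -0.20), Adamts2 (-1.40 to -0.06) and Mmp23 (-1.82 to -0.89), of which Mmp23 was called.

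**Figure D4:**
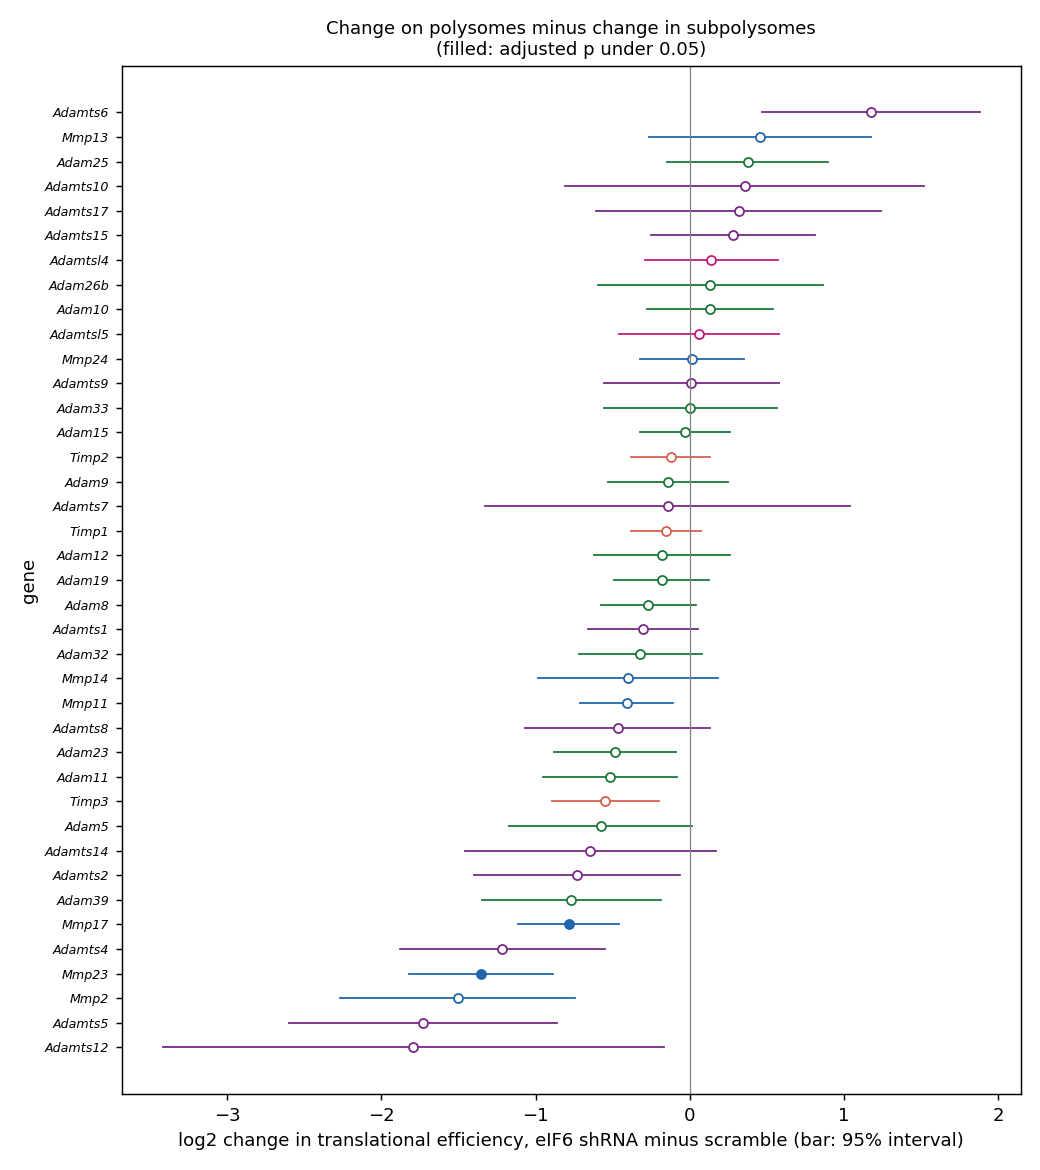
Log2 change in translational efficiency (horizontal) of the 39 genes measured in every group, sorted, with 95% intervals, n = 4 arrays a group; colours are families (blue MMP, red TIMP, green ADAM, purple ADAMTS, pink ADAMTS-like). Filled points are the called genes Mmp17 and Mmp23, and the wide bars of Adamts12 and Adamts7 show genes near background.

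Within scramble cells, polysomal signals were higher than subpolysomal ones for 23 of the 49 genes (46.9%, all genes 31.7%) and lower for 10 (20.4%, all genes 28.4%), and in depleted cells for 18 (36.7%, all genes 32.1%) and 17 (34.7%, all genes 28.7%). Measured in both fractions were 17 higher and 9 lower genes in scramble cells, and 13 and 16 in depleted cells. The shares of all genes were not narrowed in this way. Outside the MMPs, the calls not so measured were Adam17 and Adam6b, on no scramble subpolysomal array, and Adam1a, on no polysomal array. Of the 13 MMPs, 10 were higher on scramble polysomes and 7 on depleted ones, but 6 and 2 of these were measured in both fractions. The others, Mmp9, Mmp15, Mmp19 and Mmp28 in scramble and Mmp3, Mmp10, Mmp15, Mmp19 and Mmp28 in depleted cells, were well above background on no subpolysomal array of those cells. Mmp15 was at least 1.68-fold higher on scramble and at least 2.66-fold higher on depleted polysomes. Mmp19 was at least 1.84-fold higher on scramble and Mmp10 at least 1.73-fold higher on depleted polysomes, and no fold can be given for the rest of these MMPs. Mmp2 was 0.85 higher on polysomes in scramble cells and 0.66 lower in depleted cells (-0.66), and Mmp23 went from 1.67 to 0.31. Timp2 kept 1.85 and 1.72, and Mmp24 -0.80 and -0.79. These values compare fractions that were brought to one distribution, and their zero point depends on the scaling: with each fraction normalized separately, the median over all genes was 1.38 in scramble and 1.41 in depleted cells, and 40 and 35 of the 49 genes were higher on polysomes.

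The genes around the proteases moved in part with them. Over all tested genes, 10.7% fell and 11.1% rose on polysomes, and 12.3% fell and 11.9% rose in subpolysomes. Of 17 tested matrix substrates outside the collagens, 12 fell and 1 rose on polysomes, with a median of -1.40, and 9 fell and 1 rose in subpolysomes. Examples are versican (Vcan), which fell by 1.40 and 1.32 in the 2 fractions, aggrecan (Acan), which fell by 2.00 and 1.36, and fibrillin 1 (Fbn1), which fell by 2.70 and 2.42; these are substrates of ADAMTS proteases or partners of ADAMTS-like proteins. The small proteoglycan biglycan (Bgn) fell by 1.57 on polysomes and its efficiency by 1.71 (adjusted p = 0.00383). Laminin alpha 5 (Lama5) rose by 0.44 on polysomes.

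Among astacin proteases and their enhancers, several of which trim the other end of procollagens, 4 of 5 tested genes fell on polysomes, the largest fall being that of the enhancer Pcolce (-1.52, SE 0.26), and 1 rose (Mep1a, 0.53). Of 10 tested activating proteases and their inhibitors, Serpinb2, the plasminogen activator inhibitor 2, was well above background on all 8 scramble and on no depleted arrays, so that its fall is a bound. Depleted cells had an at least 9.90-fold lower polysomal and an at least 4.66-fold lower subpolysomal signal. Serpinb2 passed the detection filter only through the scramble groups, in which it is high, and its values are a description. In the same list the membrane protease matriptase (St14) fell by 1.68 and 0.69. Plau fell by 1.17 in subpolysomes (adjusted p = 0.00357) and was not called on polysomes. Serpine2, which inhibits thrombin and plasminogen activators, rose by 1.04 and 0.96. Among 14 tested receptors and partners, 2 fell and 3 rose on polysomes, where 10.7% of all tested genes fell and 11.1% rose. The falls were in caveolin 1 (Cav1, -0.69, adjusted p = 0.0160) and Tspan14 (-0.44, adjusted p = 0.000376), and the rises in Rhbdf2 (0.38), a carrier of ADAM17, and in Tspan5 (0.71) and Tspan15 (0.59). In subpolysomes 1 of the 14 fell, Tspan33 (-0.41, adjusted p = 0.00625), and 2 rose, Tspan5 (0.62, adjusted p = 0.0174) and Tspan15 (0.37, adjusted p = 0.0126). Of all tested genes, 12.3% fell and 11.9% rose there. Tspan5, Tspan14, Tspan15 and Tspan33 are tetraspanins that escort ADAM10, and they did not change in one direction.

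**Figure D5:**
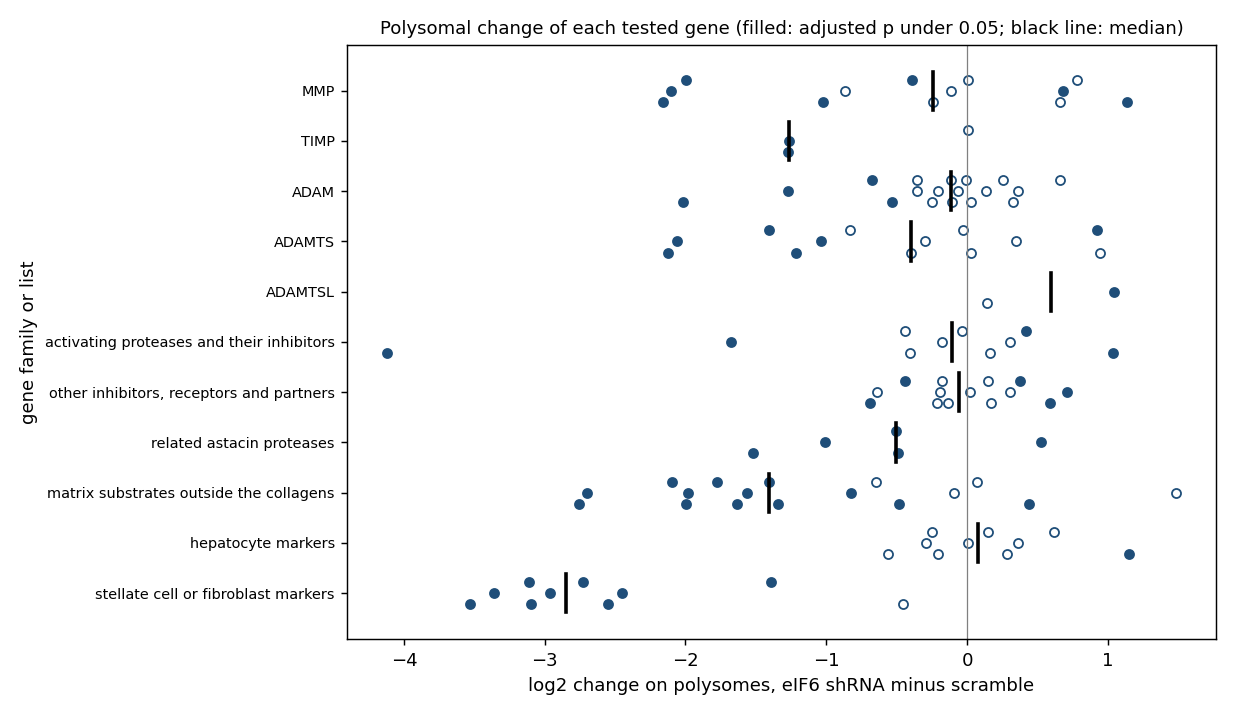
Log2 change on polysomes (horizontal) of each tested gene in the 5 families, in 4 lists of related genes and in 2 marker lists (rows); filled points were called, and the black line is the median of the list. The matrix substrates and the stellate cell or fibroblast markers lie mostly left of 0, and the hepatocyte markers around it. The points of Mmp9, Pdgfra, Postn and Serpinb2 rest on depleted polysomal arrays of which none was above background.

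Markers of stellate cells and fibroblasts moved with these results. Of 10 tested, 9 fell on polysomes (all genes 10.7%), with a median of -2.85. Among the 9, Pdgfra and Postn were above background on no depleted polysomal array and passed the filter only through scramble groups, where they are high. Their falls are bounds, at least 7.10-fold and 2.95-fold, and the median takes in their values below background. In subpolysomes 8 fell (all genes 12.3%), with a median of -1.38. Pdgfra, on no depleted array there, is again a bound of at least 4.06-fold. The summed signal of the 10 markers, on the log2 scale, was 17.3 to 18.0 on the scramble polysomal arrays and 14.2 to 14.7 on the depleted ones, and 16.9 to 17.0 against 15.4 to 15.9 in subpolysomes. Of 10 tested hepatocyte markers 1 passed the test on polysomes, Ttr, which rose by 1.15, and their sums, 18.3 to 18.9 and 18.4 to 18.9, overlapped. Most of these sums is the signal of Krt18, which read 18.0 to 18.5 and 18.1 to 18.5 on the same arrays. The sums therefore say little of the other hepatocyte markers, of which Cps1 was above background on no polysomal array. Macrophage markers fell for 2 of 5 (Csf1r and Itgam), with Lyz2 on no array; of 3 tested endothelial markers Vwf rose, with Cdh5, Tek, Stab2 and Lyve1 on no array; and none of 5 biliary markers was called on polysomes. The part of the stellate cell and fibroblast markers in the falls of Timp1, Timp3, Mmp2, Mmp23 and the ADAMTS genes was not tested.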

How the data were processed

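Polysomal and subpolysomal RNA of AML12 cells was hybridized to 16 one-colour Agilent arrays. The authors deposited, for each array, background-subtracted spot intensities from Feature Extraction (version 10.7.7.1 in the processing notes, 10.7.3.1 in the file headers) and a table of log2 values that were quantile normalized over all arrays. Other columns deposited hold raw intensities and flags of 0 or 1 per spot. Here the intensities were put on the log2 scale, kept for probes that 2 or more arrays of any group read well above background, quantile normalized and averaged over the kept probes of a gene. One mean per group was fitted to all 16 arrays with limma 3.58.1 in R 4.3.3, with Benjamini-Hochberg adjustment over 19366 genes and 12 residual degrees of freedom. Where a group was on no array above background, the fold is a bound against the lowest signal called above background. On simulated data with 200 changed genes, 85% of changes of 1.5 and 56% of changes of 0.75 were found for the polysomal comparison, with 9 unchanged genes called.

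The members and the lists of related genes were chosen with earlier results of these data known. Values on every array are given for members called with a change of at least 1 and for Mmp2, Mmp14, Timp1, Timp2, Timp3, Adam10 and Adam17, other called members are given by their change, and uncalled ones by counts and a few names. Alternatives were other normalizations (75th percentile, 7 spike-in probes, each fraction apart, before the filter, the authors' log2 table), normexp background correction with an offset of 50, other detection filters, the brightest probe, slide or replicate as a block and leaving out each replicate number. The number of arrays, 4 per group, limits the precision. No arrays held identical values and no spot was saturated.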

Additional observations from a re-analysis of the deposited data

Results flagged for a closer look

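In 6 of 80 groups of 4 arrays, among the 20 genes given on every array, 1 array stood apart by a gap that was large beside the range of its group (Dixon's test), and chance flags about 1 group in 20. Mmp9 read 4.46 on scramble polysomal array 4 and 2.93 to 3.17 on the others of that group. Mmp13 read 8.10 on scramble subpolysomal array 4, where the others read 8.71 to 8.78. The other 4 were eIF6 shRNA subpolysomal arrays: Mmp23 read 7.62 on array 3 (others 7.22 to 7.23), Adamts1 read 9.62 on array 1 (others 9.87 to 9.90), Adamtsl4 read 9.56 on array 4 (others 9.32 to 9.34) and Adam10 read 10.58 on array 2 (others 10.81 to 10.84). These lay on all 4 array numbers, so no single replicate held them.

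The change after eIF6 depletion differed between the fractions, by limma's contrast of the changes, for Mmp23 (-1.35, adjusted p = 0.00465) and Mmp17 (-0.79, adjusted p = 0.0171). Both were lower on polysomes on all 4 slides.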

How the results depend on the processing

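All 20 polysomal calls were kept under each alternative fitted to all 16 arrays, apart from spike-in scaling (13 kept), no detection filter (Adam23 lost) and the stricter filter, which tested 19 of them and kept all. With spike-in scaling no gene was called higher on polysomes (0), 1 was called lower and 0 higher in subpolysomes, 0 lost efficiency, and 1 was lower on polysomes than in subpolysomes in either cell type. Efficiency losses numbered 2 as reported and 6 with the 75th percentile, with each fraction normalized apart and with normexp. They numbered 4 with the stricter filter, the brightest probe and the replicate block, and 0 to 4 with a replicate left out. Without replicate 1 the 2 calls were Adamts4 (-1.34) and Adamts5 (-1.50), each the mean of both probes of the gene. Subpolysomal rises numbered 2 without a filter and 2 to 6 with a replicate left out. Between fractions, the 75th percentile gave 16 lower and 15 higher genes in scramble cells and 10 higher in depleted cells, and separate normalization gave 1 and 40 in scramble and 3 and 35 in depleted cells.

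Every polysomal, subpolysomal and efficiency call kept its sign in each setting that tested it. Over the 49 genes, those with a change below 0 went from 31 to 41 on polysomes, from 30 to 38 in subpolysomes and from 29 to 38 for efficiency with spike-in scaling. Among the genes given on every array, the uncalled changes that turned with that scaling were Adam10 (-0.19 on polysomes, -0.15 in subpolysomes, efficiency -0.044), Adam17 (-0.24 on polysomes), Mmp14 (-0.023 in subpolysomes) and Timp2 (-0.48 on polysomes, -0.084 in subpolysomes). The polysomal change of Timp2 was also -0.0056 with the 75th percentile, -0.030 with separate normalization, -0.0064 with the authors' log2 values and -0.054 to 0.11 with a replicate left out. Its efficiency was 0.17 with the brightest probe. That of Timp1 was 0.064 with the 75th percentile and 0.17 with separate normalization, and that of Adamtsl4 -0.040 to 0.25 with a replicate left out, below 0 without replicate 3. Adam17 in subpolysomes read 0.015 with the 75th percentile, 0.0064 with normexp, 0.12 with the stricter filter and 0.0021 with the brightest probe. The cause of these shifts was not tested.

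Replicate numbers were not taken as pairs: deviations of same-numbered arrays from their group means correlated at -0.16 to 0.41, with 2 of 16 pairs over 0.1, and 3 of 16 arrays correlated best with their own number. With the replicate block, the counts of calls were otherwise within 1.5 times those reported.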
